A study of Drosophila melanogaster with 6 samples.

Results

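The nuclear genes of the mitochondrial respiratory chain and ATP synthase were compared between whole Drosophila melanogaster embryos without FoxL1, a forkhead transcription factor, and wild-type embryos. A gene was a member if its current symbol begins with ND-, COX, UQCR, ATPsyn or Sdh, or is RFeSP, Cyt-c1, Cyt-c-p or Cyt-c-d, and if a probe set of the Affymetrix Drosophila Genome 2.0 array named it alone. Of 95 genes that carry such a symbol in the RefSeq gene table, 75 were measured, among 11982 genes in all. The other 20 had no probe set of their own and were not analysed here, among them both cytochrome c genes, SdhA, UQCR-C1, UQCR-C2 and the 3 COX genes of the mitochondrial genome. The 75 comprise 53 subunit genes, 21 paralogue forms, whose symbol is that of a subunit followed by L, and the assembly factor gene Sdhaf3. Each gene is represented by its brightest probe set. Subunits known by other symbols, such as blw, levy and ox, lie outside the rule and are given apart.

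The control embryos were Oregon R. The null embryos carried the foxLCr and foxL1del alleles and, per the labels' protocols, were laid by flies of that same genotype, so the parents lacked FoxL1 as well. Each genotype had 3 arrays of independent biological samples, with embryos of stages 11 to 15, collected over 8 h and aged for a further 11 h. The labels do not reconcile the stages with these times, so the age of the embryos is not settled here. Each genotype was a line of its own, so genotype and line cannot be told apart, and whole embryos mix all tissues. Values are log2 expression values, differences are null minus wild type, and a call means an adjusted p under 0.05 in limma over all probe sets.

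The FoxL1 probe set read 4.85, 5.12 and 5.01 on the wild-type arrays and 4.23, 4.35 and 3.37 in the null arrays, without overlap (limma log2 difference -1.01, SE 0.25, adjusted p = 0.0489). Of 17 measured tissue markers 12 lay above the median level in both genotypes, among them elav for neurons, repo for glia, srp for hemocytes, fkh for salivary gland and grh for epidermis. The markers Hml, Lsp2, vas, can and aly lay below it. Null array 3 stood apart in the control probe sets that compare the 3' and 5' ends of a transcript, a sign of RNA quality. Its 3' minus 5' difference was 0.20 for actin and 0.71 for eIF-4a, against at least 0.67 and 0.88 on the other arrays, and 0.62 for GAPDH, against at most 0.53. Values that move by over 1.5 times without this array are given both ways for the members described in detail. The deposited arrays also differ in their medians, which were 5.08, 4.96 and 5.02 on the wild-type arrays and 4.94, 4.87 and 4.90 on the null arrays. The counts over the subunits are therefore also given with these medians set equal, which raises every difference by the same amount, so that of ND-13B goes from -0.65 to -0.53. The upper quartiles were 7.64, 7.62 and 7.60 on the wild-type arrays and 7.63, 7.63 and 7.52 on the null arrays. There null arrays 1 and 2 lay within the wild-type range, so setting the medians equal can raise the differences of bright genes too far.

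The respiratory chain passes electrons from NADH and succinate to oxygen through 4 membrane complexes of the inner mitochondrial membrane, and complexes I, III and IV pump protons. ATP synthase, complex V, lets the protons flow back and makes ATP. Complex II is also an enzyme of the citric acid cycle. Most subunits are encoded in the nucleus and imported, and a few core subunits of complexes I, III, IV and V come from the mitochondrial genome. In flies many subunit genes have a duplicate, and several of these duplicates are known for expression in the testis.

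The subunit genes read slightly lower in the null embryos in all complexes, while single genes rarely passed the test. Of the 53 subunits 50 had a negative difference, with a median of -0.23 and quartiles of -0.29 and -0.16. Over all genes 60% were negative and the median was -0.07. The size depended on the scaling. With each array centred on its median 44 of the 53 were negative with a median of -0.11, beside 0.05 over all genes, and with another quantile normalization 47 were negative with a median of -0.14, beside -0.04. One subunit, ND-13B, passed limma's threshold as lower and 0 as higher. The background was 4% of genes called lower and 6.24% called higher, or 7.84% of probe sets in either direction, so by calls the subunits lie near or under the background. With the replicate number as a block 3 passed as lower, ND-13B, ND-51 and ND-B14, and 0 as higher, against 9.09% and 7.92% of all genes. At an unadjusted p under 0.05, 21 of the 53 were lower and 1 higher, where 15.1% and 12% of all genes were. With the arrays centred only 4 were lower and 1 higher, beside 927 and 1987 of the 11982 genes, and without null array 3 the counts were 17 and 0, beside 13.6% and 14.2%.

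Nearly all subunit genes are bright on these arrays. Signals depend on the probes, so they do not rank RNA amounts, but 47 of the 53 lay above the 90th percentile of all probe sets. ND-B8 at 2.19, ND-B12 at 4.54 and UQCR-11 at 4.98 were dim, at or below the median level. For the 50 bright subunits, the 1915 genes at least as bright as the dimmest of them are a closer background. There 48 of 50 subunits were negative, against 62% of those genes, and the medians were -0.24 and -0.09. Of these genes 2.92% were called lower and 15.5% were lower at an unadjusted p under 0.05, as 1 and 21 of the 50 subunits were. The plot of level against difference shows the subunits as a band below 0 at the bright end.

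**Figure D1:**
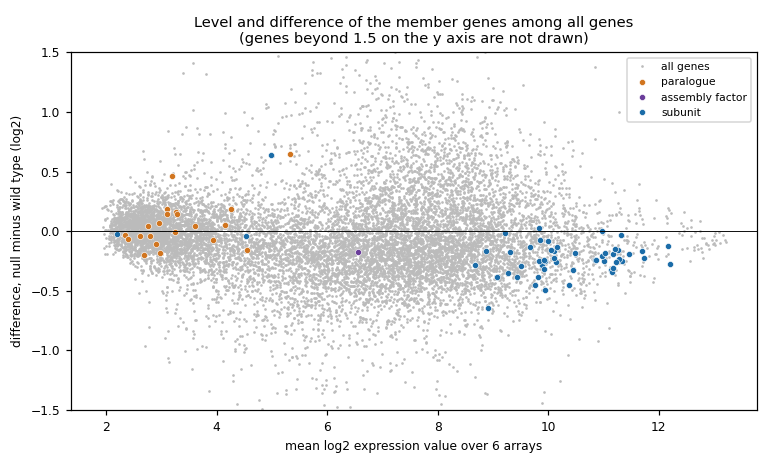
Mean log2 expression value over 6 arrays (x axis) and log2 difference, null minus wild type (y axis), for all genes within 1.5 of 0 (grey), 53 subunits (blue), 21 paralogue forms (orange) and Sdhaf3 (purple), 1 point per gene. The bright subunits lie mostly between -0.5 and 0, and the paralogue forms lie at the dim end on either side of 0.

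The shift was visible array by array. Relative to each gene's mean over the 6 arrays, the median bright subunit stood at 0.13, 0.14 and 0.08 on wild-type arrays 1, 2 and 3 and at -0.05, -0.10 and -0.23 on null arrays 1, 2 and 3. The medians of the genotypes did not overlap, and null array 3 was lowest. The 1915 genes of like brightness stood at 0.00, 0.04 and 0.03 on the wild-type arrays and at 0.03, 0.05 and -0.14 on the null arrays, so they too were lowest on null array 3 but not on the other null arrays.

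All 3 null values lay below all 3 wild-type values for 41 of the 53 subunits, and above them for 0. Of all genes 17.8% lay below and 14.1% above in this way, and of the 1915 bright ones 19.5% lay below. Without null array 3, 48 of the 53 were separated in this way, against 22.7% of all genes and 23.4% of the bright ones. Also without it 52 of the 53 had a negative difference, with a median of -0.18, against 56.9% and 55.1%. With the arrays centred, 18 of the 53 lay below and 2 above, against 8.85% and 20.4% of all genes. The separations given below by complex and by gene are on the deposited scale, where the null arrays have the lower medians. A smaller number of cells rich in mitochondria and a lower RNA level per cell cannot be told apart in whole embryos.

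**Figure D2:**
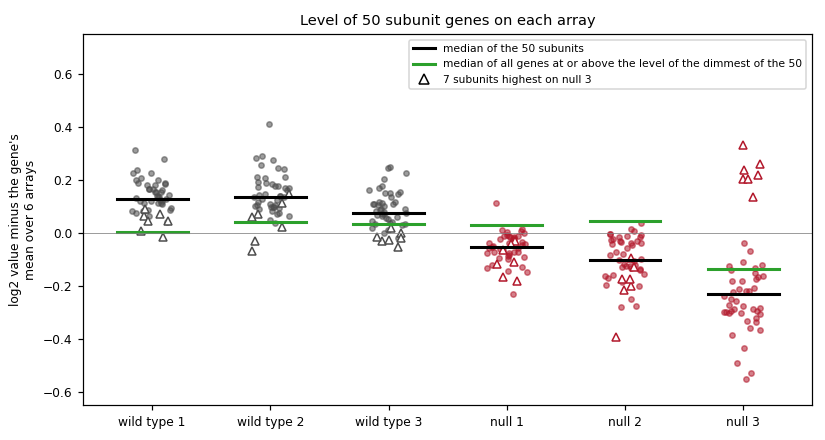
Log2 value of each of the 50 bright subunit genes minus its own mean over 6 arrays (y axis) on each array (x axis; grey wild type, red null). Black lines are the subunits' medians, from 0.14 down to -0.23, green lines those of all 1915 genes of like brightness, and triangles mark the 7 subunits that were highest on null array 3.

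Null array 3 held the lowest of the 6 values for 37 of the 50 bright subunits and the highest for 7, or 74% and 14%. Of all genes above the median level 36.5% were lowest and 10.4% highest on it, so the share of 7 is near that background. The 7 were ND-13A, ND-ACP, ND-ASHI, ND-B17.2, SdhD, COX7C and ATPsyndelta, and they were picked out after their values were seen. In them null array 3 stood 0.20 to 0.51 above the mean of the other null arrays, and in the other 43 it stood between -0.43 and 0.08 from it. SdhD, a membrane anchor of complex II, read 9.21, 9.29 and 9.19 on the wild-type arrays and 9.04, 9.04 and 9.55 on the null arrays. COX7C, a small subunit of complex IV, read 11.32, 11.38 and 11.29, then 11.20, 11.14 and 11.55. In both genes null arrays 1 and 2 lay below the wild type and null array 3 above it. The 7 were picked by their high value on null array 3, so this gap and a fall without the array follow. Without null array 3 the differences of the 7 became -0.31 to -0.07, and 6 of the 7 were then separated from the wild type. So were 47 of the 50 bright subunits, and 23.4% of the 1915 genes of like brightness. The part of this array's RNA quality in these values was not tested.

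Complex I oxidises NADH and passes the electrons to ubiquinone. Its matrix arm holds the redox centres and its membrane arm pumps protons. Of 27 measured subunits 26 were negative (median -0.24, and -0.21 without null array 3), with 13 at an unadjusted p under 0.05, all lower. Over all genes 60% were negative and 15.1% were lower at that threshold. The medians were alike in both arms, -0.26 over 11 matrix arm subunits and -0.24 over 14 membrane arm subunits. ND-ACP, which sits in both arms, and ND-MLRQ, which later work placed in complex IV, are not counted in either.

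ND-13B, an accessory subunit of the matrix arm, read 9.23, 9.33 and 9.16 on the wild-type arrays and 8.77, 8.64 and 8.37 on the null arrays. The groups did not overlap, and its level fell 1.57-fold (limma log2 difference -0.65, SE 0.13, adjusted p = 0.0235). Leaving out wild-type array 1, 2 or 3 lost the call (limma adjusted p = 0.0855, 0.0859 and 0.0776), as did centring the arrays on their medians (0.0564).

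ND-51, the core subunit that binds NADH and flavin mononucleotide, read 10.15, 10.22 and 10.19 and then 9.85, 9.82 and 9.41. The difference was -0.49 (SE 0.14, limma adjusted p = 0.0759, and 0.0429 with the replicate block). ND-B14, an accessory subunit of the LYR family, read 10.03, 10.00 and 9.91 and then 9.70, 9.56 and 9.32. It differed by -0.45 (SE 0.12, limma adjusted p = 0.0702, and 0.0357 with the block). In both genes every null array was below every wild-type array, and null array 3 was lowest.

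ND-B14.7, an accessory membrane arm subunit, read 9.63, 9.64 and 9.59 and then 9.36, 9.23 and 9.13, a difference of -0.38 (SE 0.10, limma adjusted p = 0.0660). The spread within the wild type was small, with an SD of 0.03 (n = 3). ND-B22, an accessory membrane arm subunit of the LYR family, was picked out after its value was seen, since it differed by as much as ND-B14, -0.45 (SE 0.13, limma adjusted p = 0.0903). Among the other core subunits of the matrix arm, ND-20, which holds the last iron-sulphur cluster before ubiquinone, was at -0.24 and ND-75, which holds several clusters, at -0.17. The sole complex I subunit above 0 was ND-13A, at 0.03, and it was at -0.07 without null array 3.

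Complex II, succinate dehydrogenase, joins the citric acid cycle to the chain. SdhC, a membrane anchor, read 10.07, 10.12 and 10.03 on the wild-type arrays and 9.82, 9.75 and 9.69 on the null arrays, without overlap (difference -0.32, SE 0.10, limma adjusted p = 0.0947). SdhB, the iron-sulphur subunit, read 9.43, 9.45 and 9.32 and then 9.32, 9.28 and 9.06. Its groups only just failed to overlap, and the difference was -0.18 (SE 0.11), or -0.10 without null array 3. SdhD was at -0.02, and at -0.19 without it. The assembly factor gene Sdhaf3 read 6.68, 6.63 and 6.60 and then 6.49, 6.45 and 6.45, also without overlap, at -0.18 (SE 0.09, limma adjusted p = 0.328).

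Complex III takes electrons from ubiquinol to cytochrome c. Of 6 subunits 5 were negative and separated, with 0 called. Over all genes 60% were negative, 17.8% separated in this way and 4% called lower. The median of the 6 was -0.25, or -0.15 without null array 3. RFeSP, the Rieske iron-sulphur protein that takes the electrons from ubiquinol, read 10.68, 10.54 and 10.63 by its brightest probe set on the wild-type arrays and 10.46, 10.27 and 10.15 on the null arrays (difference -0.33, SE 0.11, limma adjusted p = 0.148). Cyt-c1, the haem subunit that reduces cytochrome c, was at -0.25, or -0.13 without null array 3. The accessory subunits UQCR-Q, UQCR-6.4 and UQCR-14 were at -0.29, -0.25 and -0.19, or at -0.18, -0.16 and -0.11 without it. UQCR-11 was the exception, with 4.74, 4.99 and 4.24 on the wild-type arrays and 4.88, 5.50 and 5.50 on the null arrays. Its groups overlapped, and the difference of 0.64 (SE 0.24) did not pass (limma adjusted p = 0.168).

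RFeSP has a dimmer probe set that behaved otherwise. It read 3.16, 3.38 and 2.99 in the wild type, near the floor of the arrays, and 8.07, 8.17 and 7.99 on the null arrays. The difference was 4.90 (SE 0.13, limma adjusted p = 8.06e-06), 29.9-fold, and it ranked 1st by size and by p among the 18769 probe sets tested. Since a level near the floor compresses a fold, its size is not settled. The array annotation lists RFeSP alone for this probe set, and the sources used here do not say which part of the transcript it matches. The probe sets of this gene thus differed in opposite directions between the genotypes.

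The genes next to RFeSP in the RefSeq order were looked at for the same rise. Of the 5 on each side 8 had a probe set, and 1 passed, where 6.24% of all genes were called higher and 4% lower. The neighbour that passed was CG14352, directly beside RFeSP, which went from 5.54 ± 0.10 to 6.26 ± 0.34 (mean ± SD, n = 3 each). The difference of 0.72 had an SE of 0.17 (limma adjusted p = 0.0464, and 0.00972 with the replicate block). The other 7 differed by -0.50 to 0.04. The lowest was chinmo, at -0.50 (limma adjusted p = 0.0714, and 0.0424 with the replicate block).

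**Figure D3:**
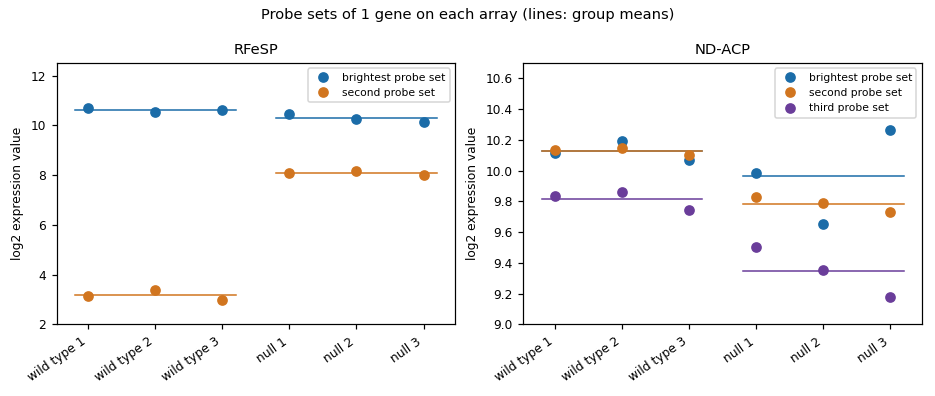
Log2 expression value (y axis) of each probe set of RFeSP (left) and ND-ACP (right) on each array (x axis), with lines at the group means of 3 arrays. The dimmer RFeSP probe set goes from about 3 to about 8 while the brighter stays above 10, and the brightest ND-ACP probe set is highest on null array 3 where the others are lowest.

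ND-ACP, the mitochondrial acyl carrier protein, has 3 probe sets, all lower on the mean but unlike on null array 3. Its brightest probe set read 10.12, 10.19 and 10.07 and then 9.98, 9.65 and 10.27, with overlap. The difference was -0.16 (SE 0.16, limma adjusted p = 0.639), or -0.31 without null array 3. The next read 10.13, 10.15 and 10.10 and then 9.83, 9.79 and 9.73, at -0.34 (SE 0.09, limma adjusted p = 0.0697). The dimmest read 9.83, 9.86 and 9.74 and then 9.50, 9.35 and 9.18, and passed as lower at -0.47 (SE 0.11, limma adjusted p = 0.0492). Null array 3 was thus the highest of all arrays by one probe set and the lowest by the others. The probe sets of ATPsynbeta, ATPsyngamma and ND-B17 differed in the same direction within each gene, from -0.31 to -0.16. COX7B and COX7C each have a probe set at a level near 3 of the opposite sign to the brightest, at 0.03 and 0.29, which did not pass.

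Complex IV, cytochrome c oxidase, hands the electrons to oxygen. All 7 of its measured subunits were negative (median -0.19), 6 of them separated and 0 called. Across all genes 60% were negative, 17.8% so separated and 4% called lower. COX7A, a small nuclear subunit, read 11.27, 11.37 and 11.24 on the wild-type arrays and 11.00, 11.07 and 10.82 on the null arrays (difference -0.33, SE 0.11, limma adjusted p = 0.124). COX8 read 11.40, 11.45 and 11.33 and then 11.24, 11.23 and 11.00, at -0.23 (SE 0.11), or -0.15 without null array 3. COX5B, a zinc-binding subunit, was at -0.21 (SE 0.09) and COX5A and COX4 were at -0.16 and -0.15, the latter at -0.083 without null array 3. In each of these genes every null array lay below every wild-type array on the deposited scale, although none passed the test. Such separation was rarer with the arrays centred, at 18 of the 53 subunits against 41.

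ATP synthase has a catalytic F1 head, a rotor in the membrane and a stalk that holds the head still. Of its 10 measured subunits 9 were negative and separated, with a median of -0.24, and 0 were called. Among all genes 60% were negative, 17.8% separated in this way and 4% called lower. ATPsynbeta, the catalytic subunit, read 12.34, 12.30 and 12.38 on the wild-type arrays and 12.22, 12.08 and 11.91 on the null arrays (difference -0.28, SE 0.11, limma adjusted p = 0.208). ATPsynCF6, a coupling factor of the stalk, read 11.35, 11.33 and 11.31 and then 11.07, 11.06 and 10.82. It had the greatest difference of the complex, -0.35 (SE 0.11, limma adjusted p = 0.105). ATPsynB, the long stalk subunit, was at -0.31 (SE 0.11) and ATPsynO, which joins the stalk to the head, at -0.26, or -0.14 without null array 3. ATPsynC, which forms the rotor ring, was at -0.22 and ATPsyngamma, the shaft of the rotor, at -0.24. ATPsyndelta of the central stalk was at 0.00, or -0.07 without null array 3, and it is one of the 7 highest on that array.

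**Figure D4:**
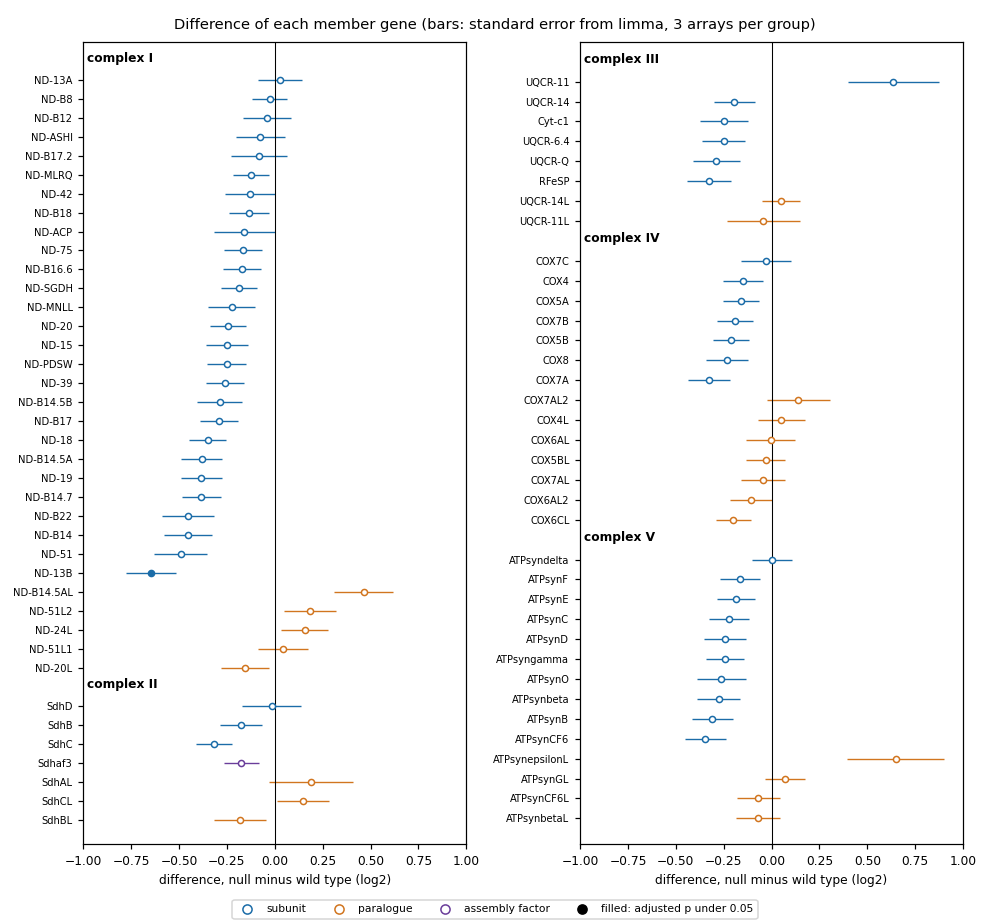
Log2 difference, null minus wild type, of the 75 member genes by complex (points) with limma's standard error (bars), in blue for subunits, orange for paralogue forms and purple for the assembly factor. ND-13B at -0.65 is the sole filled point (adjusted p under 0.05), and 50 of 53 subunits but 10 of 21 paralogue forms lie below 0.

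The paralogue forms lay on either side of 0. Of the 21, 10 were negative and 11 positive, with a median of 0.04, and 0 passed limma's threshold. At an unadjusted p under 0.05, 0 were lower and 2 higher, where 15.1% and 12% of all genes were. Genes of every level enter these shares, as they do the 4% called lower, the 6.24% called higher and the 60% negative, while the paralogue forms are dim. The levels of the 21 ran from 2.34 to 5.33, with 9 below the 25th percentile of all probe sets, where a fall can hardly show and a small rise is compressed. ND-B14.5AL read 3.05, 2.92 and 2.93 on the wild-type arrays and 3.29, 3.23 and 3.77 on the null arrays. It was the sole member whose null values all lay above the wild type, with 14.1% of all genes so placed. Its difference was 0.46 (SE 0.15, limma adjusted p = 0.128), or 0.30 without null array 3, at levels near the floor. COX6CL read 2.80, 2.74 and 2.82 and then 2.59, 2.61 and 2.55, separated the other way and also near the floor, at -0.20 (SE 0.09). ATPsynepsilonL, the brightest of them, read 4.91, 4.89 and 5.21 and then 6.08, 5.05 and 5.82. Its groups overlapped through null array 2, and the difference of 0.65 (SE 0.25, limma adjusted p = 0.187) passed as higher when that array was left out (limma adjusted p = 0.0148). SdhBL was at -0.18, with overlap, and at -0.28 without null array 3. The testis markers can and aly read 2.40 and 2.46 on the wild-type arrays and 2.38 and 2.70 on the null arrays, near the floor, and bol read 8.39 and 8.37.

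Of the subunits whose symbols the rule does not catch, all 5 measured ones were negative. They were added after the data were seen. The gene ox, a small subunit of complex III, read 10.29, 10.31 and 10.26 on the wild-type arrays and 9.91, 9.90 and 9.83 on the null arrays. It passed as lower at -0.41 (SE 0.09, limma adjusted p = 0.0378). The catalytic partner of ATPsynbeta, blw, was at -0.29 and the complex IV genes levy and cype were at -0.22 and -0.08. The ATP synthase gene sun, near the median level, was at -0.12. Of these 5 genes, blw, levy and ox were separated on the deposited scale, and cype was highest on null array 3. Among all genes 60% were negative, 17.8% separated in this way and 4% called lower.

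Other mitochondrial genes were read from lists of known pathway members. The background for the counts in these and the later lists is that 60% of all genes were negative, 4% called lower and 6.24% called higher. At an unadjusted p under 0.05, 15.1% of all genes were lower and 12% higher. Of 10 measured genes of pyruvate dehydrogenase and the citric acid cycle 9 were negative (median -0.20), 1 passed as lower and 0 as higher. The one was Idh3b, a subunit of NAD-dependent isocitrate dehydrogenase, which read 9.36, 9.26 and 9.37 and then 8.64, 8.70 and 8.60 (difference -0.68, SE 0.10, limma adjusted p = 0.00581). Its partner subunit Idh3g was at -0.34 (SE 0.11, limma adjusted p = 0.134). In both genes the null arrays lay below the wild type.

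Of 7 carrier and pore genes 6 were negative (median -0.19) and 0 passed, with 0 at an unadjusted p under 0.05. Beside these and the next lists, 60% of all genes were negative, 4% called lower and 15.1% lower at the unadjusted threshold. Mpcp1, a phosphate carrier, was at -0.26 and Ant2, an adenine nucleotide carrier, at -0.19. Of 6 genes of ubiquinone synthesis 5 were negative (median -0.25), and 0 passed, with 2 at an unadjusted p under 0.05, Coq6 at -0.37 and Coq7 at -0.27. All 5 measured assembly factors outside the rule were negative (median -0.28), and 0 passed in limma, with 3 at an unadjusted p under 0.05. With the replicate block 1 passed, sicily, which helps complex I form, at -0.40 (SE 0.11, limma adjusted p = 0.0772, and 0.0446 with the block). With the block 9.09% of all genes were called lower. Ttc19, a complex III factor, was at -0.39.

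Genes that keep and express the mitochondrial genome did not lean one way. Of 12 measured, 7 were negative (median -0.08), 1 rose and 0 fell, where 60% of all genes were negative, 6.24% called higher and 4% called lower. The rise was that of mtTFB2, a mitochondrial transcription factor, which read 6.32, 6.15 and 6.30 and then 6.62, 6.71 and 6.87 (difference 0.47, SE 0.11, limma adjusted p = 0.0430). PolG1, the mitochondrial DNA polymerase, was at 0.28 (SE 0.10, limma adjusted p = 0.134). None of the 13 listed subunits of the mitochondrial genome was matched by symbol, so they were not analysed here.

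**Figure D5:**
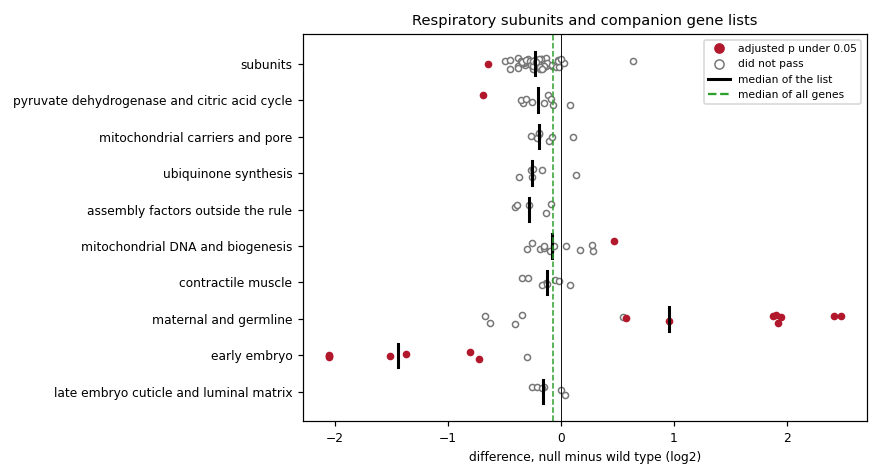
Log2 difference, null minus wild type (x axis), of the 53 subunits and of each measured gene of 9 lists (rows), 1 point per gene, filled red where limma's adjusted p is under 0.05. Black bars are list medians, such as -0.23 for the subunits and -1.44 for the early embryo list, and the dashed line is the median of all genes, -0.07.

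Gene groups that mark the egg and the early embryo, taken up with their results known, differed by more than the subunits did. The shares called among all genes were 6.24% higher and 4% lower. Of 13 maternal and germline genes 8 rose and 0 fell, with tor, a receptor of the egg's terminal system, at 2.48 and bam, a germ cell differentiation factor, at 1.95 (limma adjusted p = 0.000116 and 0.000747). The other 5 did not pass, and 4 of them were negative, gnu at -0.67, osk at -0.62, png at -0.41 and gcl at -0.34. Of these png and osk had an unadjusted p under 0.05, and the null arrays were all below the wild type for png. The fifth, vas, was at 0.55 with the null arrays all above the wild type. It passed as higher only with the replicate block (limma adjusted p = 0.0708, and 0.0278 with the block). Of 8 genes of the early embryo 7 fell and 0 rose, with halo, a lipid droplet transport factor, at -2.05 and the gap gene gt at -1.52 (limma adjusted p = 0.00202 and 0.00339). The summed signal of the first list ran from 10.80 to 11.17 on the wild-type arrays and from 12.11 to 12.25 on the null arrays, and that of the latter from 10.15 to 10.51 and from 8.62 to 9.27 (log2 of the sum). Their part in the subunits' result was not tested.

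Muscle is a tissue rich in mitochondria. Of 8 contractile muscle genes 7 were negative (median -0.13), beside 60% of all genes, and 0 passed in limma, where 4% of all genes were called lower. Where 15.1% of all genes were lower at an unadjusted p under 0.05, 0 of the 8 muscle genes were. Their summed signal ran from 13.62 to 14.07 on the wild-type arrays and from 13.50 to 14.01 on the null arrays, so the groups overlapped. The spread within each genotype was larger than the subunits' median difference of -0.23, so a shift of that size could not be seen here. The part of muscle in the subunits' result was not tested. Tm2, a tropomyosin, was at -0.34 (SE 0.19) and Prm, a paramyosin, at -0.29 (SE 0.24). Of 6 genes of the late embryo's cuticle and luminal matrix 4 were negative (median -0.16) and 0 passed, with 0 at an unadjusted p under 0.05. Their sums were 12.78 to 12.87 and 12.47 to 12.83, and knk and serp, which organise chitin, were at -0.25 and -0.21.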

How the data were processed

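Total RNA of whole embryos was hybridised to 6 arrays, 3 per genotype, grouped by the sample titles. The deposited values are log2 expression values, which the authors made with Partek and RMA per the submitters' processing notes, without versions. RMA normally sets all arrays to a shared distribution, which removes a change common to most genes, and compresses low levels. The deposited medians still ran from 4.87 to 5.08. No genome build is given in the sources used here. Of 18952 probe sets 183 controls were left out. Of the 18769 tested, 13647 named 1 gene, and 13544 of these took the current symbol through the gene identifier from the RefSeq table (Release 6 plus ISO1 MT), used only for names and gene order. A gene was represented by the probe set with the highest mean.

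The comparison used limma (version 3.58.1, lmFit and eBayes, R version 4.3.3) with genotype as the sole term. Each 2-sided p was adjusted with the Benjamini-Hochberg method across every tested probe set, the threshold was 0.05, and each SE is limma's. The fit was tested on simulated data. The number of arrays, 3 per group, limits the precision. Arrays with the same replicate number deviated together from the group means (correlations of 0.108, 0.544 and 0.224), which met the minimum of 0.1 for pairing. The labels do not say what the number marks, and wild-type array 1 correlated more with null array 3 (0.266). Blocked values stand where they change a call. Named genes are the 4 with the smallest p in each complex, any past the threshold, separated paralogue forms and 2 per list; others are named to complete a complex. The members, lists and rules were chosen with earlier results of these data known. The closing section gives the alternatives.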

Additional observations from a re-analysis of the deposited data

Results flagged for a closer look

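One result stands out from data that the gene-level comparison does not use. The dimmer RFeSP probe set, which does not represent its gene, differed by 4.90 between the genotypes (log2, null minus wild type, limma adjusted p = 8.06e-06), above its level in the wild-type arrays, where its mean ± SD was 3.17 ± 0.19. On the null arrays it was 8.08 ± 0.09 (n = 3 in both). Groups of 3 arrays are too small for the check of single outlying samples.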

How the results depend on the processing

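The median difference of the 75 members was -0.18, and 61 of them were negative. The median was -0.23 over the 53 subunits alone, -0.24 over the 52 members above the 50th percentile of level and -0.12 after another quantile normalization. Leaving out 1 array at a time gave -0.20 to -0.16, with 54 to 63 members negative. Centring each array on its median moved the median of all genes from -0.07 to 0.05, and the members' median to -0.057. Over the 53 subunits the median was -0.11 with centring and -0.14 with the other quantile normalization. Relative to the median of all genes, which centring cannot alter, the subunits lay between -0.19 and -0.11 under the other fits.

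Without any change 1 member was called. The replicate block, the other quantile normalization and array weights each called 3, all lower, where 9.09%, 3.84% and 7.12% of genes were called lower, and the filter at the 50th percentile called 2, against 7.18%. Centring called 0, against 2.08% called lower and 8.19% higher, with 4 members lower and 3 higher at an unadjusted p under 0.05 in limma. Leaving out 1 array at a time called 0 to 2. It was 0 without wild-type array 1, 2 or 3, where 1.34%, 1.76% and 1.53% of genes were called lower, with 13, 13 and 15 members at an unadjusted p under 0.05. The mean of all probe sets of a gene called 2, ND-13B lower and RFeSP higher (2.29), against 4.04% and 6.33%. At such shares 0 to 3 of 75 members is near or under the background. Chosen after seeing the data, the lowest-mean probe set called 3, adding ND-ACP (-0.47) and RFeSP, and the 5 subunits outside the rule brought the count to 2 with ox.

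Over all probe sets 1472 were called, 585 lower and 887 higher. The block called 2441 and array weights 2460, leaving out 1 array at a time called 663 to 1513, and centring shifted the split to 324 lower and 1179 higher. Of 267 recomputed values of the 21 named members 256 kept their direction and their side of the threshold, 7 gained the call, 4 lost it (all ND-13B) and 0 reversed. The dimmer RFeSP probe set stayed between 4.81 and 5.02 (limma adjusted p of at most 0.000591).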
